A study of Homo sapiens with 80 samples.

Results

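The comparison described here is the step from day 2 to day 4 in 1 high purity cardiac differentiation of WTC11 cells, an established human induced pluripotent stem cell line. It rests on 8 of the 80 RNA sequencing libraries of the study, 4 wells collected on day 2 and 4 on day 4, and on the 19375 of 43388 listed genes that reached at least 1 TPM (a length-corrected share of a well's reads) in 3 or more of these 8 wells. Of those genes, 15322 reached that level in 3 or more wells of each day, while 714 did so with no day 4 well and 888 with no day 2 well.

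The study followed differentiations of human pluripotent stem cells to cardiomyocytes, classed afterwards as high or low purity from the share of cells with cardiac troponin T on day 16, counted by flow cytometry. All 8 wells came from a WTC11 culture at passage 52, grown on Matrigel. They received CHIR99021, an inhibitor of the kinase GSK3 that switches on WNT signalling, on day 0 in medium with B27 lacking insulin, and 5 µM IWP2 in the same base medium from day 2. The day 4 medium change removed IWP2, and insulin came only from day 6. The labels give a CHIR99021 range of 6 to 12 µM without the dose used here, and do not say whether the day 2 wells were lysed before or after the medium change. No wells were kept without IWP2, so the inhibitor, the withdrawal of CHIR99021 and the 2 days of culture cannot be told apart. The 4 wells of a day are wells of 1 differentiation, so the p-values measure the spread between wells and not between differentiations. Other samples serve only as comparators: the WTC11 differentiation at passage 69 classed as low purity, with the same media and days, and a separate total RNA experiment with 1 high purity differentiation each of H9 (passage 58), IMR90-4 (passage 55) and WTC11 (passage 81).

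In the embryo, cells that leave the pluripotent epiblast pass through the primitive streak under WNT and NODAL signals and become mesoderm. WNT signalling that promotes the streak restrains the heart programme later, and cardiac protocols therefore first stimulate and then block it. IWP2 blocks the acyltransferase Porcupine, which attaches the lipid that WNT proteins need for secretion.

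The recovered read totals were 9964769 to 14718686 per day 2 well and 12246678 to 15740106 per day 4 well (exact two-sided permutation test, p = 0.400, n = 4 and 4). The mitochondrial ribosomal RNA entry RNR2 took 12.6% to 17.0% of a well's TPM and RN7SK 5.84% to 10.2%. More genes reached 1 TPM on day 4 (18145 ± 326, SD, n = 4) than on day 2 (17570 ± 117), with p = 0.0286, the smallest that an exact two-sided permutation test of 4 against 4 can give. Each of the 8 wells had its highest correlation of log2 values with another well of its own day (Pearson r across genes 0.981 to 0.983, against at most 0.942 with any well of the other day). Against the labelled stage, streak genes such as TBXT were high on day 2 and low on day 4, and cardiac progenitor genes such as ISL1 and HAND2 were near 0 TPM on day 2 and well above it on day 4, whereas KDR, GATA6 and MESP1, markers of cardiac mesoderm, were not called.

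In the limma fit, 3417 genes (17.6% of those tested) changed by at least 1 on the log2(TPM + 1) scale with a p under 0.05 after Benjamini-Hochberg adjustment, and these are the genes said below to have risen or fallen. The rises numbered 1675 (8.65%) and the falls 1742 (8.99%). A change of at least 3 was reached by 202 rises and 189 falls, and of at least 5 by 23 and 23. The wells of the 2 days did not overlap for 3248 of the 3417 genes, against 49.2% of all genes tested. Of the called genes, 201 had at most 10 reads in every well. The median log2 change of all genes tested was 0.04. Without the scaling between wells it was 0.15, and rises then made up 56.1% of the calls instead of 49.0%.

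Among protein-coding genes, the largest rise was that of ANKRD1, a muscle ankyrin-repeat protein induced through the YAP coactivator. Its level was 0.447, 0.541, 0.600 and 1.14 TPM in day 2 wells 1 to 4, and 382, 383, 423 and 391 TPM in day 4 wells 1 to 4 (log2 change 7.77, SE 0.21, adjusted p = 6.30e-32). HAPLN1, a link protein that fixes hyaluronan to proteoglycans, went from 2.05, 0.723, 0.725 and 2.25 TPM to 390, 276, 279 and 386 TPM (7.02). All day 4 wells lay far above all day 2 wells for both genes. The next largest rises were SFRP5, a secreted WNT antagonist (6.70), the iron exporter SLC40A1 (6.65), the BMP modulator BMPER (6.51), the transcription factor GATA3 (6.51), the glutamate receptor subunit GRIK3 (5.93), SAMD11 (5.84) and HAND2 (5.73). At the other end stood the WNT antagonists DKK1 (-8.75) and DKK4 (-8.38), followed by the streak factor MIXL1 (-7.01), the metallothionein MT1H (-6.77), the caudal factor CDX1 (-6.64) and the presomitic factor MSGN1 (-6.52). The surface protein CD48 (-6.09), the matrix protein THBS2 (-5.90) and the circadian repressor BHLHE40 (-5.70) were also among the 15 largest falls.

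**Figure D1:**
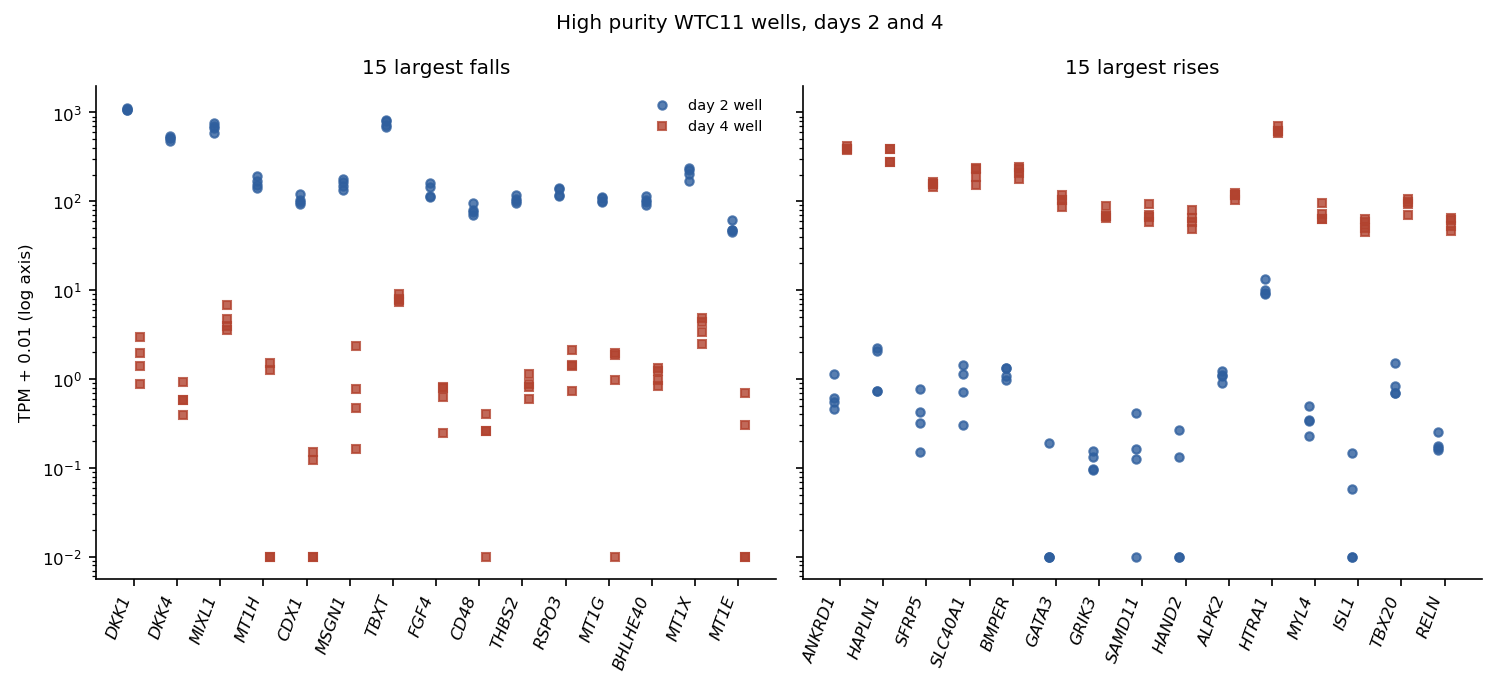
Level of the 15 genes with the largest rises and the 15 with the largest falls in each of the 8 wells, as TPM + 0.01 on a log axis; blue circles are day 2 wells and red squares day 4 wells. For every gene shown the 4 day 2 wells and the 4 day 4 wells form separate groups, and DKK1 runs from 1056 to 1110 TPM on day 2 against 0.876 to 2.95 TPM on day 4.

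**Figure D2:**
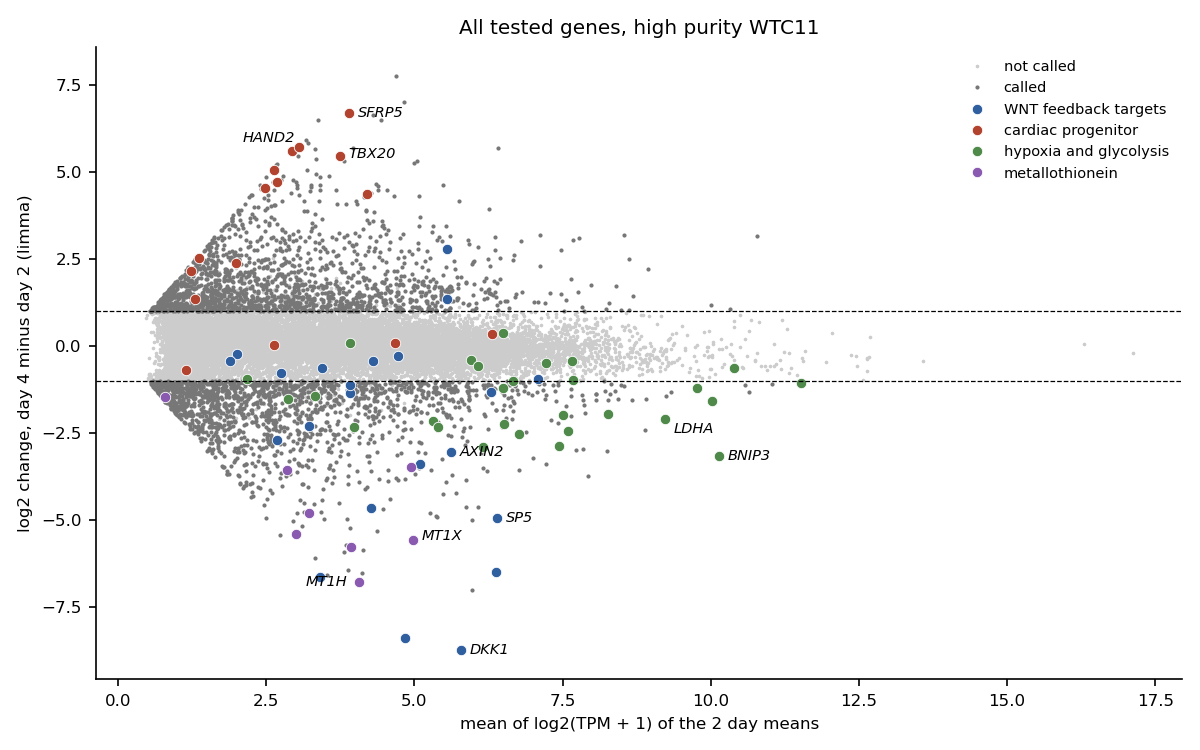
Log2 change from day 2 to day 4 of each tested gene (vertical) against the mean of its 2 day means (horizontal, log2 of TPM + 1); called genes are dark grey, genes of 4 lists are coloured, selected genes are named, and dashed lines mark a change of 1 in either direction. Rises and falls occur in similar numbers, 1675 and 1742, and the largest changes belong to genes near 0 TPM on 1 of the days.

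Most of the genes known to respond to WNT signalling fell. Of 22 tested targets and feedback regulators of the pathway, 13 fell, 2 rose and 7 were not called, with a median log2 change of -1.34. Their summed level was 3625 to 3827 TPM per day 2 well and 442 to 529 TPM per day 4 well. Among all genes tested, 8.99% fell and 8.65% rose. Of the 22, 2 reached 1 TPM in 3 or more wells of only 1 day and entered the test through that day. DKK1, which binds the LRP5 and LRP6 co-receptors, read 1110, 1103, 1056 and 1072 TPM on day 2 and 2.95, 0.876, 1.37 and 1.94 TPM on day 4 (log2 change -8.75, SE 0.18, adjusted p = 5.54e-36). Its day 2 wells varied little and its day 4 wells held 8 to 27 reads each. In the same differentiation its mean was 0.101 TPM on day 0, 19.0 TPM on day 6 and 82.2 TPM on day 8, so day 2 was the highest of these days. AXIN2, a scaffold of the beta-catenin destruction complex and a direct target, went from 144, 134, 126 and 135 TPM to 17.1, 16.6, 17.3 and 16.8 TPM (-3.03, SE 0.10, adjusted p = 6.64e-29). The 4 day 4 wells of AXIN2 agreed within 1 TPM and stood close to its day 0 mean of 18.2 TPM. SP5, a zinc finger repressor in the same feedback, fell from 441, 483, 453 and 403 TPM to 13.1, 16.1, 15 and 14.9 TPM (-4.94).

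Smaller falls were seen in the WNT receptor ligases RNF43 (-2.31) and ZNRF3 (-1.12), the inhibitors NKD1 (-3.38) and APCDD1 (-2.71), SP8 (-4.65) and the DNA-binding partners of beta-catenin LEF1 (-1.33) and TCF7 (-1.36). TCF7L2, another such partner, rose from 23.9 to 29.6 TPM in day 2 wells to 72.0 to 82.3 TPM in day 4 wells (1.35), and BAMBI, a decoy receptor of BMP and TGF-beta that is also a WNT target, rose by 2.80. MYC (-0.42), CCND1 (-0.95), LGR5 (-0.29) and NOTUM (-0.76) did not pass the rule.

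The 250 bases before the start sites of SP5 and DKK1, the strongest-falling feedback genes with matches to the letters recognised by TCF and LEF factors, are shown with those matches in capitals (CTTTGAT or CTTTGAA on either strand). Both are on the plus strand, from RefSeq on GRCh38.p14, at chr2:170715087-170715336 for SP5 and chr10:52314031-52314280 for DKK1.
SP5: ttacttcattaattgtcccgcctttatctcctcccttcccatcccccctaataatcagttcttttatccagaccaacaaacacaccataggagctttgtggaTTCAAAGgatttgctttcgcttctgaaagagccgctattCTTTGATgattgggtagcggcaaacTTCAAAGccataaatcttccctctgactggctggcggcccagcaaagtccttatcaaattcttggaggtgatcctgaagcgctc
DKK1: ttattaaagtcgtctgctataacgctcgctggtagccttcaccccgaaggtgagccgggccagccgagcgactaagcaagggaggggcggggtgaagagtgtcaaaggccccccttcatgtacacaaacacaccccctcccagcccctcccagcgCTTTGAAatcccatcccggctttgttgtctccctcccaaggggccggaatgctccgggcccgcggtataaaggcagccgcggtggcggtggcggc
SP5 holds 3 matches and DKK1 1. At least 1 match occurs in 6.03% of 27305 promoter windows of this length and at least 2 in 0.300%. Of the 13 falling genes of the list, 8 had a window and 3 of these held a match: SP5, SP8 and DKK1. A match describes letters only.

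WNT ligands, receptors and secreted antagonists moved in both directions. Of 33 tested genes, 10 rose, 8 fell and 15 were not called (median 0.32), and 16 further members stayed under the level filter. Among all genes tested, 8.65% rose and 8.99% fell. Of the 33, 6 reached 1 TPM in 3 or more wells of only 1 day and entered the test through that day. The canonical ligand WNT3A fell from 10.6, 13.5, 11.2 and 8.98 TPM to 1.03, 0.823, 0.904 and 0.974 TPM (-2.70, SE 0.10, adjusted p = 9.36e-27), with no overlap. WNT8A (-2.42) and WNT5B (-3.49) fell as well. WNT5A, the non-canonical ligand, went from 65.2, 42.9, 37.1 and 62.2 TPM to 29.8, 21.6, 19.9 and 30.3 TPM (-1.11). Its wells varied within a day, the day 2 wells by more than the gap between the lowest of them and the highest day 4 well, and its change was under 1 in the fit without scaling (-0.98) and without day 2 well 1 (-0.99) or day 4 well 3 (-0.97). WNT11, a ligand of the early heart field, rose from at most 0.227 TPM to 1.83 to 2.49 TPM (1.42). RSPO3, which strengthens WNT signals by removing RNF43 and ZNRF3 from the surface, fell from 115 to 141 TPM to 0.729 to 2.11 TPM (-5.85).

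Among the receptors, FZD10 fell (-3.92), while FZD5, FZD8 and FZD4 rose. FZD5 stood at 3.91, 4.12, 4.14 and 3.91 TPM on day 2 and at 224, 200, 261 and 188 TPM on day 4 (5.31, SE 0.21, adjusted p = 1.32e-25). FZD8 went from 1.86 to 3.05 TPM up to 52.7 to 77.4 TPM (4.08). Among the secreted frizzled-related antagonists, SFRP5 rose from 0.313, 0.142, 0.419 and 0.759 TPM to 165, 145, 158 and 156 TPM (6.70) and SFRP1 from 57.8 to 70.4 TPM up to 450 to 556 TPM (2.77), while SFRP2 fell (-2.09). PORCN, the gene of the enzyme that IWP2 blocks, was at 2.58 to 4.20 TPM on day 2 and 3.97 to 6.28 TPM on day 4 (0.32, adjusted p = 0.122) and was not called. WLS, the carrier that brings WNT proteins to the surface, rose (1.27).

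Primitive streak genes fell. Of 14 tested, 10 fell, none rose and 4 were not called, LHX1, FGF8 and GDF3 among them, with a median of -3.29. Among all genes tested, 8.99% fell. Of the 14, 2 reached 1 TPM in 3 or more wells of only 1 day and entered the test through that day. The summed level of the list was 2721 to 3336 TPM per day 2 well against 282 to 318 TPM per day 4 well. TBXT, the T-box factor brachyury that marks the streak (chr6:166157656-166168655), went from 730, 819, 795 and 688 TPM to 7.32, 8.03, 9.11 and 7.82 TPM (-6.50, SE 0.16, adjusted p = 3.94e-33). MIXL1, a homeobox factor of mesendoderm, went from 668, 764, 707 and 588 TPM to 3.59, 3.99, 4.77 and 6.76 TPM (-7.01). Every day 4 well of both genes lay at or below 9.11 TPM. FGF4, GSC and EVX1 fell by 6.43, 4.39 and 3.17 on the log2 scale. EOMES, the T-box factor that acts upstream of cardiac mesoderm, had the highest day 4 level of the group in TPM, though not the smallest change, going from 322, 359, 315 and 311 TPM to 108, 104, 122 and 95 TPM (-1.73).

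NODAL, the TGF-beta ligand of the streak, fell from 238, 327, 308 and 239 TPM to 13.0, 9.60, 7.92 and 14.7 TPM (-4.64, SE 0.20, adjusted p = 2.25e-24). Its antagonists CER1 (-3.58) and LEFTY1 (-3.36) and the activin-binding protein FST (-3.50) fell with it. The co-receptor CFC1 rose from 0.426 to 1.54 TPM up to 51.4 to 63.1 TPM (4.94) and LEFTY2 rose by 1.29. LEFTY1 and LEFTY2, like CFC1 and its copy, are near-identical pairs whose reads the counting could split, so these values are uncertain. The co-receptor TDGF1 was not called (-0.14), nor were FOXH1, SMAD2, SMAD3 or the activin receptors. In all, 4 of 14 tested genes of the pathway fell and 2 rose, against 8.99% and 8.65% of all genes tested. Of the 14, 3 reached 1 TPM in 3 or more wells of only 1 day and entered the test through that day.

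The cardiac progenitor genes were mostly near 0 TPM on day 2. Of 18 listed, 16 were tested, and 12 of these reached 1 TPM in 3 or more wells of only 1 day, so that they entered the test through the day on which they were high and their count carries no weight of its own. ISL1, the LIM homeobox factor of the second heart field, read 0.138, 0, 0 and 0.0477 TPM on day 2 and 63.5, 45.4, 59.0 and 50.2 TPM on day 4 (5.60, SE 0.13, adjusted p = 4.13e-34). HAND2, a basic helix-loop-helix factor of the ventricles, read 0.124, 0, 0 and 0.259 TPM and then 64.1, 48.6, 58.5 and 79.0 TPM (5.73). The day 2 wells of both held at most 3 reads. TBX20 (5.48), TBX2 (5.06), MYOCD (4.71), GATA5 (4.54) and FGF10 (4.38) also rose. NKX2-5, the core cardiac homeobox factor, was lower, at 0.113, 0, 0 and 0 TPM on day 2 and 6.59, 5.24, 5.72 and 4.32 TPM on day 4 (2.54), and TBX5, the factor of the first heart field, reached 6.42 to 11.7 TPM (2.40). TBX3 (0.36), HCN4 (0.04), IRX4 (-0.68) and HEY2 (0.10) were not called.

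Lateral plate and cardiac mesoderm genes were divided, with 6 rises, 1 fall and 6 genes not called among 13 tested (median 0.30). Among all genes tested, 8.65% rose and 8.99% fell. Of the 13, 2 reached 1 TPM in 3 or more wells of only 1 day and entered the test through that day. PDGFRA, a receptor used to sort cardiac mesoderm, rose from 36.9, 30.6, 30.3 and 36.1 TPM to 244, 175, 192 and 263 TPM (2.53). HAND1, the partner of HAND2 in the left ventricle, rose from 12.5, 10.7, 11.3 and 10.3 TPM to 243, 238, 243 and 230 TPM (4.18). TMEM88, an inhibitor of WNT signalling in the heart lineage, reached 27.4 to 41.2 TPM (3.89), and GATA4 rose by 1.16. KDR, the VEGF receptor that marks the same mesoderm, was at 193, 226, 208 and 204 TPM on day 2 and at 264, 203, 221 and 266 TPM on day 4 (0.07, adjusted p = 0.614). The day 4 wells of KDR overlapped the day 2 wells, as did those of GATA6 (-0.09, adjusted p = 0.180). MESP1, the factor at the top of cardiac mesoderm specification, was at 3.21 to 4.94 TPM on day 2 and 4.58 to 6.62 TPM on day 4 (0.29, adjusted p = 0.0990); its locus overlaps that of WDR93, and the strand setting of the counting is not given in the sources used here, so reads of these genes may not be told apart. The apelin receptor APLNR fell (-2.20).

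Genes of the contractile apparatus rose from a low base. Of 12 tested, 9 rose, 1 fell and 2 were not called (median 2.39), and 6 of the 12 reached 1 TPM in 3 or more wells of only 1 day. TNNT2, cardiac troponin T and the protein by which purity was scored, read 0.380, 0, 1.02 and 1.58 TPM on day 2 and 17.0, 12.9, 10.3 and 20.8 TPM on day 4 (3.15, SE 0.27, adjusted p = 1.04e-13). In the same differentiation its mean reached 1165 TPM on day 6 and 2952 TPM on day 8. The light chains MYL4 (5.67), MYL7 (4.64) and MYL3 (4.01) and slow troponin I, TNNI1 (3.58), had larger changes than the atrial heavy chain MYH6 (2.08) or cardiac actin ACTC1 (1.25). TNNI3, the adult cardiac troponin I, fell from 59.7 to 93.1 TPM to 33.2 to 44.1 TPM (-1.04). That fall was under 1 without scaling (-0.92), without day 2 well 2 (-0.93) and without day 4 well 1 (-0.97).

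**Figure D3:**
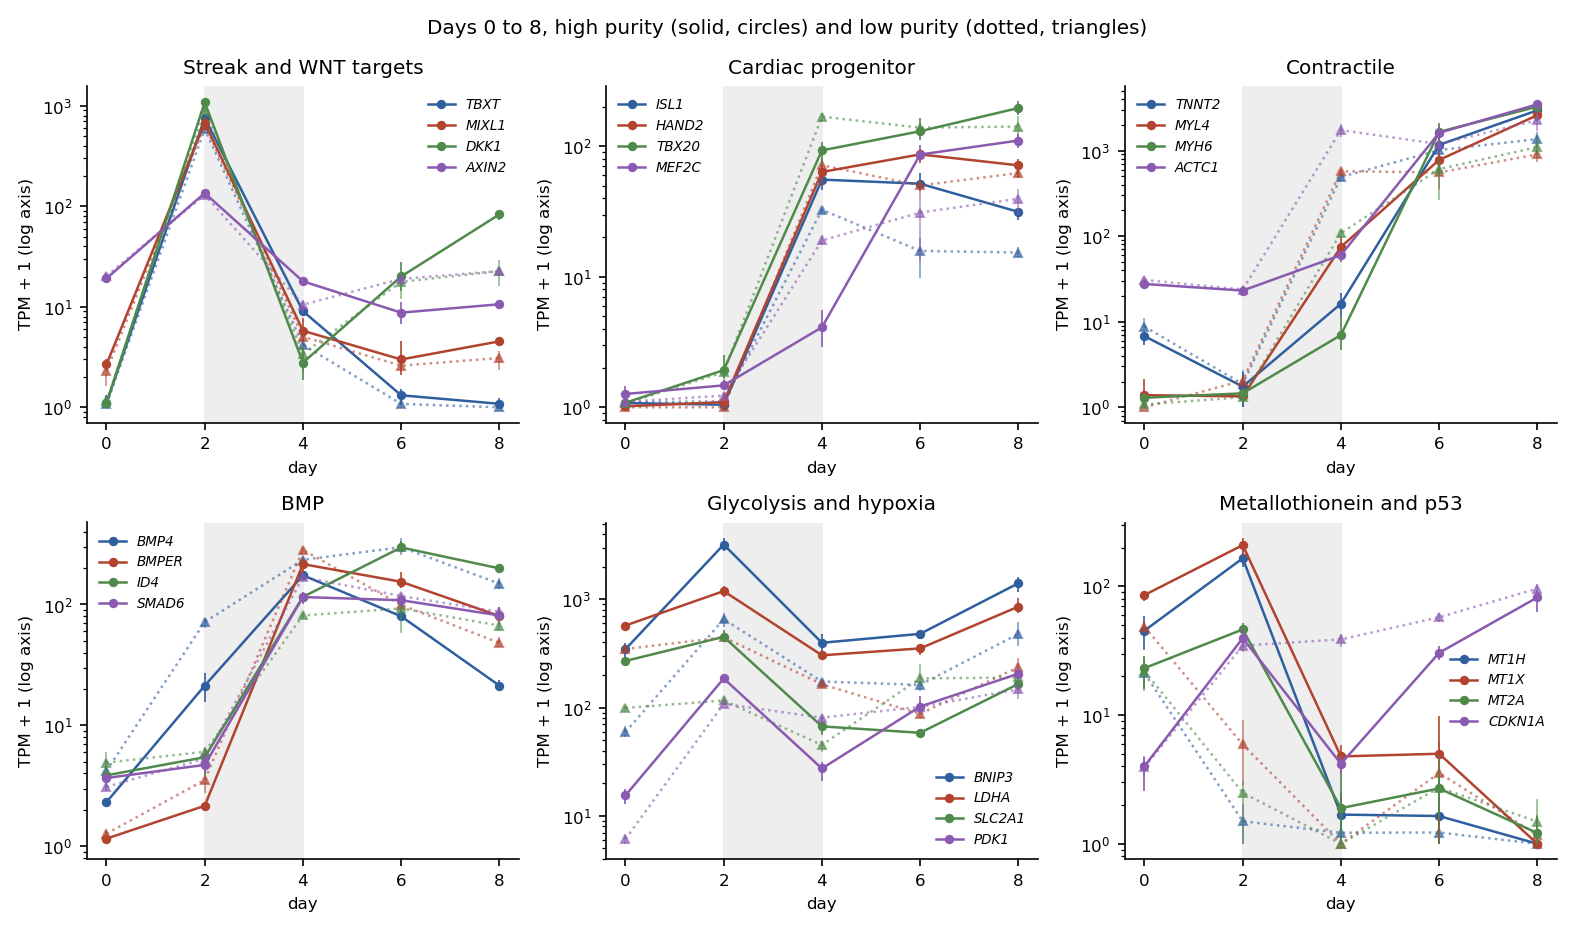
Mean level of 24 genes on days 0, 2, 4, 6 and 8, as TPM + 1 on a log axis; solid lines with circles are the high purity differentiation, dotted lines with triangles the low purity one, vertical lines run from the lowest to the highest well, and the grey band marks days 2 to 4. On day 4 the mean of TNNT2 is 15.2 TPM with high purity and 489 TPM with low purity, whereas DKK1 falls by 8.75 and by 8.12 on the log2 scale.

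Presomitic and paraxial mesoderm genes changed in both directions. Of 12 tested, 5 reached 1 TPM in 3 or more wells of only 1 day and entered the test through that day. MSGN1, which drives presomitic fate, fell from 136 to 176 TPM to 0.153 to 2.32 TPM (-6.52), and the segmentation clock genes HES7 (-3.39), DLL3 (-3.56) and LFNG (-2.46) and the T-box factor TBX6 (-3.41) fell too. EBF2, an early B-cell factor of paraxial derivatives, rose from 0.683, 0, 0.153 and 0.158 TPM to 37.9, 34.4, 38.6 and 31.0 TPM (4.78, SE 0.14, adjusted p = 3.05e-30). FOXC2 rose by 2.54. UNCX, a sclerotome homeobox gene, had no read in any day 2 well and 65 to 119 reads in the day 4 wells, at least 115-fold higher when a floor of 3 reads over the 4 wells is set for day 2. RIPPLY1, a corepressor of somite boundaries that lay outside the list, likewise had no read on day 2 and stood at 35.4, 41.7, 43.6 and 38.8 TPM on day 4, at least 259-fold higher.

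BMP signalling genes rose. Of 23 tested, 14 rose, 1 fell (MSX1, -1.98) and 8 were not called, with a median of 1.65. Among all genes tested, 8.65% rose and 8.99% fell. Of the 23, 4 reached 1 TPM in 3 or more wells of only 1 day and entered the test through that day. The summed level of the list was 607 to 711 TPM per day 2 well and 2022 to 2411 TPM per day 4 well. Among the ligands, BMP4 rose from 24.1, 16.6, 14.5 and 26.1 TPM to 177, 168, 160 and 187 TPM (2.94, SE 0.14, adjusted p = 3.52e-22), BMP2 by 3.02 and BMP5 by 2.92. BMPER, an extracellular binder of BMPs, rose from 1.32, 0.957, 1.31 and 1.06 TPM to 232, 176, 209 and 240 TPM (6.51). The targets of the pathway ID4 (4.31), MSX2 (3.35), ID1 (3.28) and ID2 (1.33) rose, and so did the inhibitory SMAD6, from 3.07, 3.76, 3.83 and 4.19 TPM to 115, 99.3, 127 and 116 TPM (4.49), and SMAD7 (2.78). The extracellular antagonist NOG rose less (1.12). The ligand BMP7 (-0.58), the target ID3, the receptors BMPR1A, BMPR1B and BMPR2, and CHRD, FSTL1 and TWSG1 were not called.

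Of the FGF genes, the ligands FGF4 (-6.43), FGF17 (-4.26), FGF19 (-4.08) and FGF18 (-2.23) fell, while the ligand FGF10 (4.38) and the receptors FGFR3 (5.31) and FGFR2 (2.63) rose. The feedback genes ETV4 (-1.88) and IL17RD (-2.09) fell, and 13 of 24 tested genes were not called, including SPRY1, SPRY2, SPRY4, DUSP6 and FGFR1. In the Notch pathway, the target HEY1 (4.64) and the ligand JAG1 (2.43) rose, NOTCH2 rose (1.27), and NOTCH1 fell (-1.59), with 4 rises and 5 falls among 16 tested. Among all genes tested, 8.65% rose and 8.99% fell. Of the 24 FGF genes 3, and of the 16 Notch genes 5, reached 1 TPM in 3 or more wells of only 1 day. These genes entered the test through that day. For retinoic acid, the aldehyde dehydrogenase ALDH1A2 (-2.44) fell while the receptor RARB (3.23), the retinol dehydrogenase RDH10 (2.47) and the degrading enzyme CYP26A1 rose. CYP26A1 read 28.3, 34.7, 28 and 25.8 TPM on day 2 and 222, 225, 255 and 194 TPM on day 4 (2.77). Of 42 HOX and CDX genes 11 were tested, and 7 of the 11 reached 1 TPM in 3 or more wells of only 1 day. Among the 11, CDX1 (-6.64), CDX2 (-4.30), CDX4 (-3.70), HOXB1 (-2.72), HOXA2 (-1.26) and HOXA3 (-1.06) fell, and HOXB5 (1.52) and HOXB2 (1.40) rose.

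In the list for epithelial-mesenchymal transition 5 of 20 tested genes rose, 5 fell and 10 were not called (median -0.21), with the cadherins CDH3 and CDH11 and the claudins CLDN3, CLDN4, CLDN6 and CLDN7 among the last. CDH1, the epithelial cadherin, fell from 336, 454, 420 and 328 TPM to 98.8, 103, 128 and 85.0 TPM (-2.01), and the mesenchymal CDH2 fell as well, from 943, 1011, 992 and 921 TPM to 423, 405, 489 and 393 TPM (-1.31). Both cadherins were lower in every day 4 well. Of the repressors of CDH1, SNAI1 fell (-1.71) while SNAI2 (2.28), TWIST1 (2.08) and ZEB1 (1.33) rose. In the extracellular matrix list 15 of 27 tested genes rose, 2 fell and 10 were not called (median 1.38). The summed level of this list went from 2114 to 2243 TPM per day 2 well to 4664 to 5952 TPM per day 4 well. Of the 27, 4 reached 1 TPM in 3 or more wells of only 1 day and entered the test through that day. Among all genes tested, 8.65% rose and 8.99% fell. FN1, fibronectin, rose from 114, 128, 115 and 107 TPM to 1288, 982, 1171 and 1260 TPM (3.20), the hyaluronan synthase HAS2 from 144 to 169 TPM up to 802 to 1148 TPM, tenascin TNC by 3.21 and the laminin chain LAMA1 by 2.29. COL6A1 (-1.57) and COL1A2 (-1.06, and -0.94 without scaling) fell.

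Metallothioneins, small cysteine-rich proteins that bind zinc and copper, fell to a few reads per well. The 8 members tested, with the zinc exporter SLC30A1 among them, fell (median -5.11), 5 of them having reached 1 TPM in 3 or more wells of day 2 only, and their summed level went from 607 to 782 TPM per well to 14.3 to 18.2 TPM. MT1X read 171, 237, 201 and 222 TPM on day 2 and 3.42, 4.89, 2.46 and 4.32 TPM on day 4 (-5.57, SE 0.43, adjusted p = 2.93e-15). MT2A went from 38.2, 47.3, 50.7 and 44.8 TPM to 2.46, 0.493, 0.619 and 0 TPM (-4.81), and SLC30A1 from 86.9 to 108 TPM down to 7.67 to 9.94 TPM (-3.48). The MT1 genes resemble each other closely, so their shares of reads are uncertain. The summed level above includes SLC30A1, which held 7.67 to 9.94 TPM of it on day 4. That sum does not depend on the split among MT1 genes, but would depend on reads left out for fitting several genes. Whether such reads were left out was not tested. MT1M had no read on day 4 and was at least 4.80-fold lower.

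The MT1H and MT2A windows are shown, as they hold the most list matches to a loose form of the metal response element core. The letters sought were TGCNCNC on either strand, in capitals, whereas the usual core has A or G after TGC. The shares of windows given below are those of the loose form. They lie on the plus strand at chr16:56669564-56669813 and chr16:56608334-56608583 (RefSeq, GRCh38.p14).
MT1H: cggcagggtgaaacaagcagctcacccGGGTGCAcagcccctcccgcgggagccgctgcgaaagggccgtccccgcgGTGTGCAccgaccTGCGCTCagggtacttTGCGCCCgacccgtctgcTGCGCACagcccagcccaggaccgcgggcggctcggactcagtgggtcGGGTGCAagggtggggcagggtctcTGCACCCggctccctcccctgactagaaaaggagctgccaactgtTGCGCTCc
MT2A: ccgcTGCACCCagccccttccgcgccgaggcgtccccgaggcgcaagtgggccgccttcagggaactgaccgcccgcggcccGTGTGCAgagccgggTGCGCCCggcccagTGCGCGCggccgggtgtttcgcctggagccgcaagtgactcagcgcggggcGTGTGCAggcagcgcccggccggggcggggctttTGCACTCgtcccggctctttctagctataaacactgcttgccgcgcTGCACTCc
MT1H has 8 matches and MT2A 7; 5 or more occur in 0.480% of the 27305 windows, while at least 1 occurs in 48.4%. All 4 genes of the list with a window, of 8 that fell, held at least 1 match, with 4 in MT1X and 1 in the exporter SLC30A1.

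Of 28 tested hypoxia-inducible and glycolytic genes, 19 fell, against 8.99% of all genes tested, none rose and 9 were not called (median -1.47). Their summed level went from 15507 to 18904 TPM per day 2 well to 6129 to 7205 TPM per day 4 well. BNIP3, a mitophagy receptor induced by HIF1, read 2900, 3695, 3408 and 2792 TPM and then 381, 413, 479 and 309 TPM (-3.15, SE 0.16, adjusted p = 2.74e-21). SLC2A1, the glucose transporter GLUT1, went from 433, 516, 448 and 399 TPM to 69.2, 55.2, 80.1 and 59.6 TPM (-2.88). LDHA, which turns pyruvate to lactate, went from 1040, 1336, 1243 and 1136 TPM to 335, 295, 302 and 279 TPM (-2.09). PDK1 (-2.90), PGK1 (-2.43), HK2 (-2.24), ENO1 (-1.57), PKM (-1.20) and GAPDH (-1.05) fell too, whereas VEGFA (-0.44), ADM and SLC2A3 were not called. The means on day 0 were 345 TPM for BNIP3, 269 TPM for SLC2A1 and 572 TPM for LDHA, so day 2 was above day 0 for each and day 4 stood below day 0 for SLC2A1 and LDHA. These are levels side by side; no test was made of them.

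The LDHA window is shown as the one with the most matches to the core of the hypoxia response element in this list (ACGTG on either strand, in capitals; CACGTG counts on both strands), at chr11:18394313-18394562, plus strand, RefSeq on GRCh38.p14.
LDHA: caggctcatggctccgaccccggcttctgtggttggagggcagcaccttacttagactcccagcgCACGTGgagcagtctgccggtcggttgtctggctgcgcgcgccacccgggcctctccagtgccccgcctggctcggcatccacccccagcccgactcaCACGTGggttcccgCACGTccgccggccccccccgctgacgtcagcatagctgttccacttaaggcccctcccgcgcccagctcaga
It holds 5 matches. A match occurs in 18.7% of the 27305 windows and in 10 of the 18 windows of the 19 falling genes.

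Of 15 tested p53 targets, 7 fell, against 8.99% of all genes tested, and none rose (median -0.95). Of the 15, 1 reached 1 TPM in 3 or more wells of only 1 day. CDKN1A, the p21 inhibitor of cyclin-dependent kinases, fell from 46.6, 40.4, 33.0 and 34.2 TPM to 3.14, 3.82, 3.20 and 2.56 TPM (-3.33, SE 0.16, adjusted p = 2.90e-22). GDF15 (-3.33), TNFRSF10B (-1.83), SESN1 (-1.10) and BAX (-1.05) also fell. Most cell cycle genes were not called (18 of 23); CCNE1 (1.44), CCNE2 (1.05) and CDC6 (1.08) of the G1 to S transition rose and the mitotic kinase BUB1 fell (-1.44). CCNE2 was under 1 without any of day 2 wells 2 and 3 and day 4 well 4 (0.88 to 0.99), and CDC6 without day 2 well 2 (0.97). In the cholesterol synthesis list, 20 of 23 genes were not called. INSIG1, which holds back the sterol-sensing machinery, rose (1.26).

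Most pluripotency genes were not called. Of 12 tested, NANOG fell, FOXD3 rose from at most 1 read per well (1.40) and 10 were not called (median -0.35). NANOG read 44.5, 48.8, 44.4 and 46.8 TPM on day 2 and 4.07, 4.27, 3.68 and 2.84 TPM on day 4 (-3.43, SE 0.11, adjusted p = 3.09e-28). SOX2 stood at 79.8, 64.5, 64.7 and 75.3 TPM and then at 41.1, 42.4, 56.1 and 39.0 TPM (-0.79, adjusted p = 0.00602), without overlap but under the fold rule. LIN28A, an RNA-binding repressor of let-7 (1107 to 1300 TPM on day 2, 1120 to 1455 TPM on day 4), and TDGF1 showed no called change. POU5F1 was not tested: its 7 entries in the table are at 0.370 TPM or less in these wells. Whether the annotation, or reads that fit several entries, lowered these values was not tested. They therefore do not show that POU5F1 RNA was absent.

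**Figure D4:**
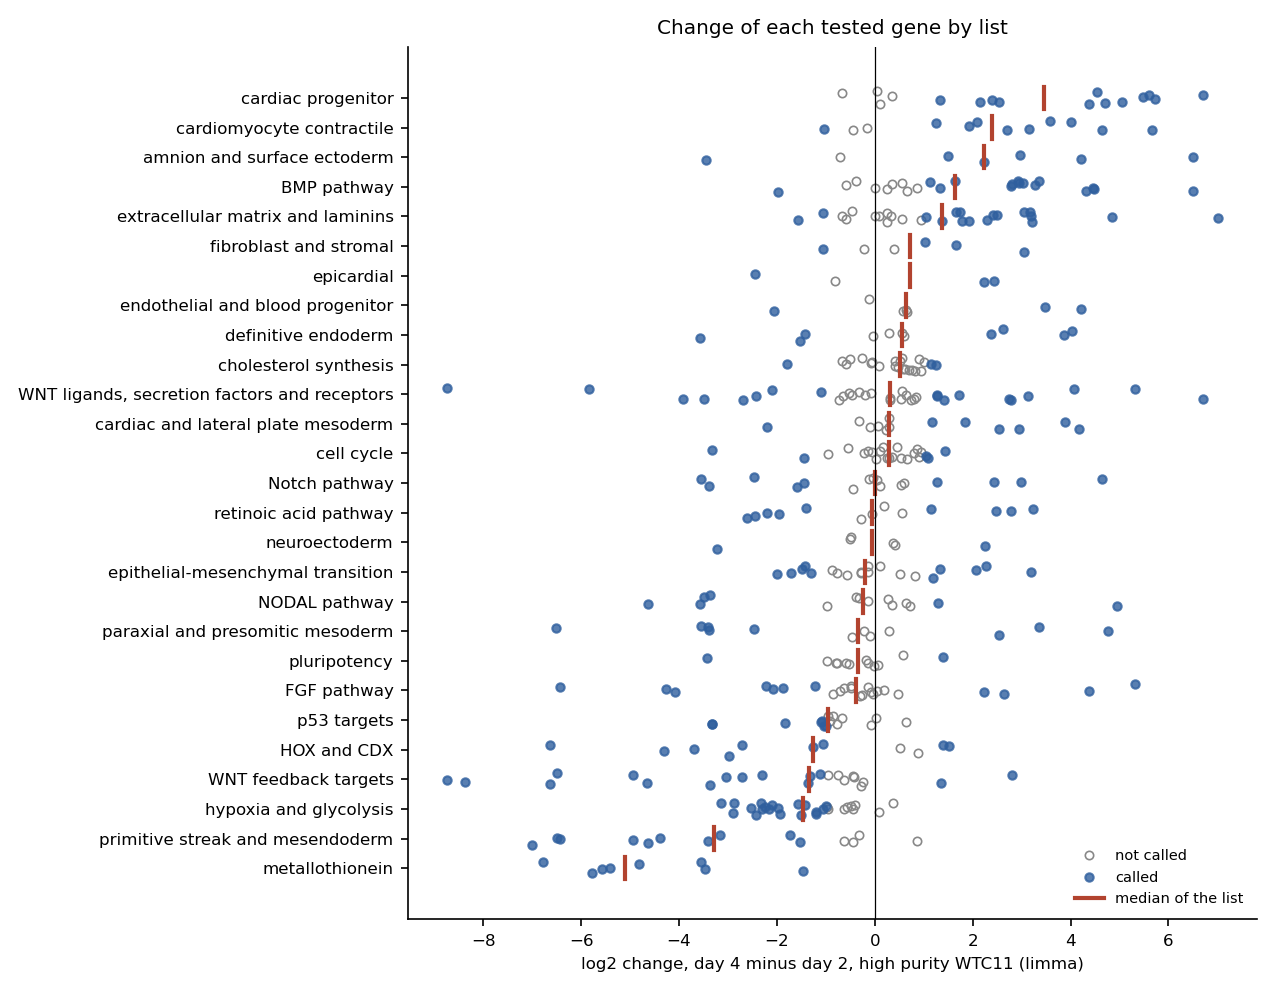
Log2 change of every tested member of the gene lists, 1 row per list, with filled points for called genes, open points for the others, a red bar at the median of the list and a vertical line at 0. Metallothionein, streak and hypoxia and glycolysis lists lie to the left, and cardiac progenitor, contractile, amnion and BMP lists to the right.

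Markers of other cell types moved beside these groups. In definitive endoderm, 4 of 11 tested genes rose and 3 fell, with SOX17 going from 5.77, 3.98, 2.94 and 3.57 TPM to 74.3, 75.7, 88.9 and 73.9 TPM (3.87) and FOXA1 rising by 4.02, while FOXA2 (-1.52), CER1 and EPCAM (-1.42) fell; the sum ranged over 1263 to 1525 TPM on day 2 and 610 to 728 TPM on day 4, and AFP and TTR did not reach the filter. For amnion and surface ectoderm, 5 of 7 rose, with GATA3 from at most 0.183 TPM to 116, 103, 104 and 86.1 TPM (6.51) and KRT18 by 2.23. TFAP2C fell (-3.45) and KRT7, VTCN1, CGA and TP63 did not reach the filter. In the endothelial and blood list 2 of 7 tested rose, GATA2 (4.20) and CD34 (3.47), while LMO2 fell (-2.05), and its sum was 12.3 to 15.4 TPM on day 2 and 44.2 to 50.5 TPM on day 4, with TAL1, CDH5, PECAM1 and ERG under the filter. In the epicardial list 4 of 8 genes were tested. TCF21, without reads on day 2, was at least 95.3-fold higher on day 4, BNC1 rose (2.23), ALDH1A2 fell and SEMA3D was not called (-0.80), with WT1 and UPK3B under the filter; the summed level of the list was 20.1 to 35.7 TPM on day 2 and 12.4 to 19.0 TPM on day 4. For neuroectoderm SIX3 rose (2.24), ZIC2 fell (-3.22) and PAX6 and SOX1 were under the filter. Of 6 tested fibroblast and stromal markers COL1A1 (3.05), COL3A1 (1.66) and LUM (1.03) rose, COL1A2 fell, and THY1 (-0.21) and PDGFRB (0.40) were not called. LUM was under 1 without day 4 well 2 (0.98) and with a pseudocount of 5 (0.28). Whether such cells contribute to the changes above was not tested. In these bulk wells fewer cells of a type and less RNA per cell cannot be told apart. In the amnion and endothelial lists, 4 of 7 tested genes each reached 1 TPM in 3 or more wells of only 1 day. The same held for 3 of 11 endoderm, 2 of 4 epicardial, 2 of 6 neuroectoderm and 2 of 6 stromal genes. Such genes entered the test through the day on which they were high, so these counts carry no weight of their own.

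RNA outside the protein-coding set changed too: 376 of 2811 long noncoding RNAs rose and 370 fell. Of all genes tested, 8.65% rose and 8.99% fell, and of 13254 protein-coding genes 983 rose and 1143 fell. LNCAROD fell from a mean of 110 ± 16.2 TPM (SD, n = 4) to 0.190 ± 0.222 TPM (-6.57), LINC02593, without reads on day 2, reached 39.5 ± 6.64 TPM, and PCAT14 rose from 7.85 ± 3.77 TPM to 224 ± 16.9 TPM (4.64). MEIS1-AS3 (5.07) and TBX2-AS1 (4.35), named as antisense to MEIS1 and TBX2, rose, but without the strand setting their reads may not be told apart from those of overlapping genes. Of 466 miRNA entries 61 rose and 25 fell, on few reads in a library of poly(A) RNA: MIR372 had 6 to 21 reads per day 2 well and 0 to 2 per day 4 well (-4.76). These 6 genes were chosen after their values were seen.

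The collections on days 0, 2, 4, 6 and 8 of this differentiation place the 3417 genes in time. Of the falls, 1381 had their highest mean on day 2 and 225 had it at the start, while 56 and 80 had it at days 6 and 8. Of the rises, 809 peaked on day 4 itself, 528 on day 6 and 249 at day 8, while 89 were highest at the start. The wells that defined the calls also enter these means. Falls could thus not peak in the day 4 wells, nor rises in the day 2 wells. Selection therefore sets these counts in part, and counts for all genes tested are not given here. BNIP3 and CDKN1A belonged to the falls that were higher again later, with day 8 means of 1405 and 81.0 TPM. MT1H and TBXT did not return, at 0 and 0.083 TPM on day 8.

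The same step in the low purity WTC11 differentiation shared no wells with this one. The genes tested were still those that passed the level filter in the high purity wells. Genes that reached it only in low purity wells are therefore missing from the calls, the overlap and the differences below. There, 3707 genes (19.1% of those tested) passed the same rule, 8.75% as rises and 10.4% as falls, and 2158 passed it in both with the same direction, which is 63.2% of the high purity calls and 58.2% of the low purity calls. A further 36 were called in opposite directions. The test of the difference between the 2 changes called 1915 genes (9.88%), 1023 higher in the high purity differentiation (5.28%) and 892 lower (4.6%), and 936 of the 3417 genes were among them. Of the 22 WNT feedback genes, 13 fell in each differentiation, with DKK1 at -8.75 and -8.12 and AXIN2 at -3.03 and -3.72 (high and low purity). The difference was called for 2 of the 22. That is close to the 9.88% among all genes tested, so the count does not set this list apart.

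Contractile genes rose less in the high purity differentiation by day 4. The difference was called lower there for 10 of the 12 tested, against 4.6% of all genes tested. TNNT2 rose from 0.870 ± 0.704 TPM (SD, n = 4) to 489 ± 27.4 TPM in the low purity wells, a difference of -4.88 (SE 0.38, adjusted p = 3.71e-14). ACTC1 reached 1732 ± 279 TPM there against 59.1 ± 6.73 TPM (-4.84), MYH6 108 ± 8.16 TPM against 5.99 ± 2.99 TPM (-4.21) and the sodium-calcium exchanger SLC8A1 49.4 ± 3.92 TPM against 2.17 ± 0.591 TPM (-4.63). TTN had no called difference (-0.38), and MYL3 had one the other way, with 6.01 ± 1.73 TPM in low purity and 19.8 ± 6.07 TPM in high purity wells on day 4 (difference 1.45). Of the 6 tested fibroblast and stromal genes, the difference was called lower in high purity for 5, with COL3A1 (-5.22) and LUM (-4.88) among them, and higher for THY1 (1.29). IGFBP3, an IGF-binding protein outside that list, rose less in the high purity wells (-5.12), and in the extracellular matrix list 13 of 27 tested genes had a called difference in that direction. KDR rose by 2.25 in the low purity wells and was not called in the high purity wells (difference -2.18, adjusted p = 2.24e-16), and MEF2C by 3.85 against 1.34.

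Differences in the other direction included EBF2, which reached 1.46 ± 0.287 TPM in low purity against 35.5 ± 3.5 TPM in high purity wells on day 4 (4.06, SE 0.20, adjusted p = 6.54e-21), and RIPPLY1 (3.75). The neuregulin gene NRG1 (2.99), the homeobox gene DMBX1 (3.14) and CYP26A1 (3.12) also rose more in the high purity wells. WDR93 rose there (2.54) and fell in the low purity wells (-1.36, difference 3.90), as did the overlapping MESP1 in the low purity wells (-2.47, difference 2.76). EOMES fell to 12.9 ± 1.44 TPM in the low purity wells against 107 ± 11.3 TPM (difference 2.75), and SOX17 rose by 1.67 against 3.87 (2.20). NODAL went the other way: it kept 66.0 ± 9.68 TPM in the low purity wells against 11.3 ± 3.09 TPM (difference -3.82), and HOXB1 rose there by 1.16 while falling by 2.72 in the high purity wells.

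Several falls of the metallothionein, p53 and glycolysis lists were deeper in the high purity wells, where day 2 levels were also higher for several genes. MT1X was at 208 ± 28.7 TPM on day 2 in high purity and 4.91 ± 2.64 TPM in low purity wells, and MT1H at 164 ± 21.3 TPM against 0.497 ± 0.575 TPM. The difference was called lower in high purity for 7 of the 8 genes of the metallothionein list, against 4.6% of all genes tested. However, 5 of the 8 had passed the filter through the day 2 high purity wells only, so this count carries no weight of its own. MT1X and MT1H were already low on day 2 in the low purity wells, which limits how far they could fall there. For BNIP3 the day 2 means were 3199 ± 426 TPM and 653 ± 84.8 TPM (difference of changes -1.16), and for SLC2A1 449 ± 49.3 TPM and 115 ± 8.88 TPM (-1.43), and 15 of 28 genes of the list had a called difference in that direction. CDKN1A began alike, at 38.6 ± 6.28 TPM and 33.6 ± 3.94 TPM, and then fell in the high purity wells while it stood at 37.7 ± 3.98 TPM in the low purity wells (difference -3.41, SE 0.23, adjusted p = 2.02e-16). In the p53 list 8 of 15 genes had a called difference in that direction, against 4.6% of all genes tested.

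In the total RNA experiment, the same step was measured in 3 other high purity differentiations, from day 2 to 4 in WTC11 and from day 3 to 5 in H9 and IMR90-4. An edgeR quasi-likelihood test with the line as a block called 1349 of 23354 genes (5.78%), 3.54% as rises and 2.24% as falls. That count was 623 without H9, 980 without WTC11 and 19 without IMR90-4. With no fold threshold, falls outnumbered rises, 1323 to 1017. Of the 3128 called genes tested there, 2860 (91.4%) had the same sign, against 70.9% of all 18329 genes tested in both, and 1781 (56.9%) had the same sign in each of the 3 lines, against 40.2% of those 18329 genes. In that fit 718 were also called in the same direction and 2 in the opposite one. TBXT fell by 3.25, 4.33 and 4.79 on the log2 scale in H9, IMR90-4 and WTC11 (edgeR adjusted p = 0.00443), HAND2 rose by 9.73, 8.89 and 9.01 (0.000969) and ISL1 by 4.81, 6.24 and 7.70 (0.00118). TBXT, HAND2 and ISL1 each had 1 direction in the 3 lines.

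Other groups differed between lines. DKK1 changed by -1.98, -4.30 and -7.99 (edgeR adjusted p = 0.0223) and SP5 by -1.18, -2.39 and -5.10 (0.0734) in H9, IMR90-4 and WTC11. SFRP5 changed by 0.77, 5.08 and 9.83 (0.169) and ANKRD1 by -0.11, 3.34 and 7.52 (0.289). All 19 falling glycolysis genes had a negative change in the edgeR fit, but SLC2A1 changed by 2.14 in H9, -0.12 in IMR90-4 and -2.71 in WTC11 (0.524), and LDHA by 1.31, -0.12 and -1.35 (0.724). SOX17 changed by -1.69 and -2.49 in H9 and IMR90-4 and by 5.16 in WTC11 (0.649), and CYP26A1 by -3.16, -6.51 and 1.98 (0.183). For SOX17 and CYP26A1 the direction seen in the passage 52 wells was that of the WTC11 differentiation only. With 1 differentiation per line, whether the lines differ was not tested.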

How the data were processed

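The members and the gene lists were chosen with earlier results of these data known. TPM values per gene and well were deposited by the authors; per the submitters' processing notes STAR 2.5.3a, featureCounts 2.0.3 and the build hg38 were used, with roles, annotation and strand setting not given in the sources used here. Per the labels' protocols, the multi-omic libraries were poly(A) libraries from a stranded kit and the RNA-only libraries were total RNA. The gene counts of the RNA-only experiment were used as deposited. The deposited multi-omic count table was used only to check columns: in 0 of the 8 wells did its column of the same name hold that well's reads.

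TPM was scaled by TMM factors (edgeR 4.0.16), a pseudocount of 1 was added, and limma 3.58.1 with a mean-variance trend was fitted in R 4.3.3 to all 56 multi-omic libraries, with 16 group means and 40 residual degrees of freedom. A call needed a p under 0.05 after Benjamini-Hochberg adjustment and a log2 change of at least 1. The RNA-only step was tested with edgeR's quasi-likelihood test, with line as a block. DESeq2 1.42.0 served as an alternative. Whole reads were recovered from TPM with gene lengths solved from the RNA-only tables (100% of values up to 1000 reads lay within 0.05 of a whole read), and scripts were tested on simulated data.

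The text names the 15 largest rises and falls among called protein-coding genes with at least 10 TPM and no overlap, up to 4 called rises and 4 falls per list, a fixed set of markers, and the 6 largest differences from the low purity step in each direction. Other list members, and the noncoding genes, were named after their values were seen. Some members of the lists are counted but not reported by name here. Well numbers pair no wells.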

Additional observations from a re-analysis of the deposited data

Results flagged for a closer look

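Among 267 groups of 4 wells, 8 had a well that stood apart from the other 3 by Dixon's 95% criterion; chance gives about 1 in 20 such groups. On day 2, well 2 was high for TNFRSF10B (126 TPM, the others 102 to 103), WNT5B (116 TPM, the others 104 to 106) and TBX20 (1.52 TPM, the others 0.681 to 0.818). Well 1 of that day was low for FGF10 (2.10 TPM, the others 3.02 to 3.17) and high for WDR93 (1.95 TPM, the others 1.64 to 1.69), and well 4 was high for INSIG1 (16.7 TPM, the others 12.8 to 13.4). On day 4, well 3 was high for SOX17 (88.9 TPM, the others 73.9 to 75.7). Well 2 of that day was low for BNC1 (3.62 TPM, the others 5.15 to 5.43). These 8 genes kept their call without any single well.

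The change from day 2 to day 4 differed between the high and the low purity differentiation for 1915 genes by limma's test of the difference. The largest differences were 4.06 for EBF2, 3.90 for WDR93, 3.75 for RIPPLY1, 3.14 for DMBX1, 3.12 for CYP26A1 and 2.99 for NRG1, higher in the high purity differentiation. Lower there were COL3A1 (-5.22), IGFBP3 (-5.12), TNNT2 (-4.88), LUM (-4.88), ACTC1 (-4.84) and SLC8A1 (-4.63). Each purity class is 1 differentiation here, so purity cannot be told apart from passage or from the differentiation itself.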

How the results depend on the processing

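No named gene changed direction under the alternatives run, but the balance of rises and falls did: rises made up 49.0% of the calls and 56.1% without scaling. The 3417 calls became 2083 with at least 5 TPM in all 4 wells of either day, 1551 with a pseudocount of 5 and 11232 with no fold threshold; leaving out 1 well gave 3335 to 3475. The 1915 called differences became 1131, 848 (39.4% of them higher in high purity, against 53.4%) and 7314, and 1855 to 1994 without 1 well. In the RNA-only step, 1349 calls became 2068 with DESeq2, 646 with no replicate block, 2340 with no fold threshold (43.5% of them rises, against 61.3%), and 19 to 980 without 1 line. Same-numbered wells of the 2 days correlated in their deviations by -0.076, 0.006, 0.111 and 0.063, so the wells share only a number; a replicate block gave 3416 and 1916 calls. Of 153 named genes that were called, 133 kept their call in each of up to 19 alternatives that gave a value. Of 12 named differences 11 did, and LUM missed the threshold with edgeR on recovered reads (adjusted p = 0.0801). With a pseudocount of 5, 19 named genes lost their call, among them NKX2-5 (0.99), MYH6 (0.91), HNF4A (0.92), TCF21 (0.91), SIX3 (0.94), COL3A1 (0.73) and HOXB5 (0.49). Depth limits genes near 0 TPM on 1 day, whose fold change is set by the pseudocount.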

Other observations

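Ranked by TPM instead of fold, other genes came first. KRT8, an intermediate filament protein of simple epithelia, rose from 560 ± 48.8 TPM (SD, n = 4) to 5528 ± 437 TPM, the largest gain among called protein-coding genes. KRT19 went from 852 ± 151 TPM to 1944 ± 86.8 TPM, and the mesenchymal filament gene VIM from 645 ± 13.0 TPM to 1616 ± 266 TPM. The largest losses were BNIP3 (3199 ± 426 TPM to 396 ± 70.8 TPM), GAPDH (4072 ± 296 TPM to 2149 ± 189 TPM) and GJA1, the gap junction protein connexin 43 (2427 ± 170 TPM to 1067 ± 141 TPM). These genes were chosen after their values were seen.

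Histone cluster genes took 1.93% ± 0.165 of TPM on day 2 and 2.98% ± 0.212 on day 4 (SD, n = 4 and 4; exact two-sided permutation test, p = 0.0286, the smallest possible). Of 69 histone genes tested one by one, 2 rose and 2 fell, with a median log2 change of 0.51. The share and the 69 genes do not cover the same set of entries. Much histone RNA lacks a poly(A) tail, and how much of it these poly(A) libraries retained was not measured. A change in histone RNA in the cells can therefore not be told apart from a change in what was retained.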
